A study of Mus musculus with 8 samples.

Results

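C1q macrophages were cells of the sorted fraction that held RNA of the complement C1q chains. A cell was taken as a C1q cell when at least 2 of the 3 genes C1qa, C1qb and C1qc had 2 or more UMIs (unique molecular identifiers, each counting 1 captured RNA molecule) and when Ctss or Lyz2, a lysosomal protease and a lysozyme of phagocytes, had at least 1. This rule found 1117 cells among 28671. The table held 31028 cells, of which 2357 were left out because their barcode was repeated in another healthy library, as described below. Since the cells were chosen by their UMIs of C1qa, C1qb, C1qc, Ctss and Lyz2, the levels of these genes, and the levels of C1q cells beside those of endothelial cells, are given as a description, without a test, and these 5 genes are left out of the counts of the lists.

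The cells came from hearts of Pdgfb-iCreERT2-R26R-Brainbow2.1 mice, heterozygous and on a C57Bl6 background, of both sexes and aged 8 to 10 weeks. All mice, healthy and infarcted, had received tamoxifen at 150 mg/kg, which switches on a multicolour Confetti reporter in cells where the Pdgfb promoter drives the Cre recombinase. In the MI group myocardial infarction was produced 14 days after tamoxifen by tying off the left anterior descending artery for good and hearts were taken 7 days post-MI, on day 21 after tamoxifen; the healthy group had no surgery and was taken on day 21. Viable CD31+ Confetti+ podoplanin- cells were sorted, and each of 4 healthy mice (227, 228, 239 and 240) and 4 MI mice (244, 250, 255 and 256) gave 1 droplet library. The gate was set for labelled endothelial cells and left out doublets, so it bears on every share of macrophages given here.

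C1qA, C1qB and C1qC are the chains of C1q, the recognition protein that opens the classical complement pathway and also tags dying cells for uptake. Most tissues draw C1q from their macrophages, and in the heart such macrophages lie along vessels and between myocytes, where they take up debris. Resident cardiac macrophages of the mouse are known by the hyaluronan receptor Lyve1, the phosphatidylserine receptor Timd4 and the folate receptor Folr2, whereas macrophages that arise from blood monocytes after infarction lack these and pass through a stage with the chemokine receptor Ccr2.

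The C1q genes stand side by side on mouse chromosome 4 (RefSeq annotation of GRCm38.p6), C1qb at chr4:136880126-136886200, C1qc at chr4:136889801-136892936 and C1qa at chr4:136895916-136898844, within 18719 bases. The sequences from 250 bases before to 50 bases after the start site are printed for C1qb and C1qc, which the rule used, and for Timd4, a resident gene whose level fell after infarction; of 4 genes looked for, C1qa had no entry. Capitals mark AGGAAGT, letters read by the macrophage factor PU.1, and TGCTGA, part of the letters read by MAF, on either strand; the motifs do not overlap each other.
C1qb, chr4:136886151-136886450, minus strand: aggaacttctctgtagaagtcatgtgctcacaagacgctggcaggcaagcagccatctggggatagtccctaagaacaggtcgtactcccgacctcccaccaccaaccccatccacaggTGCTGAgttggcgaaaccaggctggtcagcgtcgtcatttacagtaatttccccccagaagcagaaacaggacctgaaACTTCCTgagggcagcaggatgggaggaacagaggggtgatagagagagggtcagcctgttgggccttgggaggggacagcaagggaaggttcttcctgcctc
C1qc, chr4:136892865-136893164, minus strand: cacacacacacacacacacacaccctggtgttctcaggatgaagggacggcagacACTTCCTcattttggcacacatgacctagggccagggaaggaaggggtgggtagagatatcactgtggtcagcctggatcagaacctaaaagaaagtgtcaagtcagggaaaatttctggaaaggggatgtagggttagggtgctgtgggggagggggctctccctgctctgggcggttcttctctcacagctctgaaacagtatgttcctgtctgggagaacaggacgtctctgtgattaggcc
Timd4, chr11:46810549-46810848, plus strand: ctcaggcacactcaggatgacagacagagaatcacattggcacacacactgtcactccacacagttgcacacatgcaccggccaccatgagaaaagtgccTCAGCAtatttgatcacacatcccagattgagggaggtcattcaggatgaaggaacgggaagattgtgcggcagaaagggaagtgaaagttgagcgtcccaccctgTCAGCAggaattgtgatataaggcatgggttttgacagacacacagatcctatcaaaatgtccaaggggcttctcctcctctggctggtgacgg
AGGAAGT lay at -53 from the start site of C1qb and at -195 from that of C1qc, both on the strand opposite the gene. TGCTGA lay at -131 of C1qb on the strand of the gene and at -150 and -44 of Timd4 on the opposite strand. Of 32851 RefSeq promoters of the same length, 9.35% held AGGAAGT and 19.5% held TGCTGA on either strand.

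The libraries held between 6764977 and 27244947 UMIs per mouse. Healthy 228 stood apart: 2041 of its barcodes were also in Healthy 239, and 316 barcodes of Healthy 227 were also in Healthy 228, against 10 to 40 shared barcodes between other pairs of mice. Before copies were dropped Healthy 228 had 52 C1q cells, and 50 of them had the barcodes of the 50 C1q cells of Healthy 239. Of the UMIs of the shallower cell of each pair, a median of 99.4% matched the deeper cell gene by gene (lowest 97.3%). The 52 cells of Healthy 228 held 180741 UMIs, of which the 2 cells that were kept held 21751. The 50 cells of Healthy 239 held 384764 UMIs. Which mouse the copied cells came from was not tested. Without the copies Healthy 228 kept 2 C1q cells, so it entered the shares of cells but not the tests of genes, which used mice with at least 10 C1q cells.

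The share of C1q cells was higher in every MI mouse than in every healthy mouse. C1q cells made up 0.493% of the cells of Healthy 227 (12 cells, exact 95% binomial interval 0.255 to 0.860), 0.123% in Healthy 228 (2 cells, 0.0149 to 0.443), 1.31% in Healthy 239 (50 cells, 0.976 to 1.73) and 0.737% in Healthy 240 (24 cells, 0.473 to 1.09). The share was 6.34% in MI 244 (291 cells, 5.65 to 7.09), 4.03% in MI 250 (206 cells, 3.51 to 4.61), 10.1% in MI 255 (432 cells, 9.23 to 11.1) and 2.79% in MI 256 (100 cells, 2.28 to 3.39). These intervals cover counting error only. The groups did not overlap, and among MI mice the highest share, in MI 255, and the lowest, in MI 256, had intervals far apart.

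Over 4 mice a group, healthy hearts averaged 0.667 ± 0.50% (SD) and MI hearts 5.82 ± 3.22%, a difference of 5.16 percentage points (two-sided exact permutation test, p = 0.0286, the smallest that 4 against 4 mice can give). MI cells were also deeper, so the rule was repeated with every cell thinned to 1000 UMIs: the means were then 0.651% and 4.56% and the difference 3.91 points, with the same exact p = 0.0286. With all 3 C1q genes required the means were 0.645% and 5.27%, and with the copied cells kept 0.994% and 5.82%. A looser rule of 1 UMI moved the MI mean alone, to 12.4%, which thinning brought back to a difference of 4.61 points. A share within a sort depends on the other cells that passed the gate, so more C1q cells and fewer endothelial cells cannot be told apart.

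**Figure D1:**
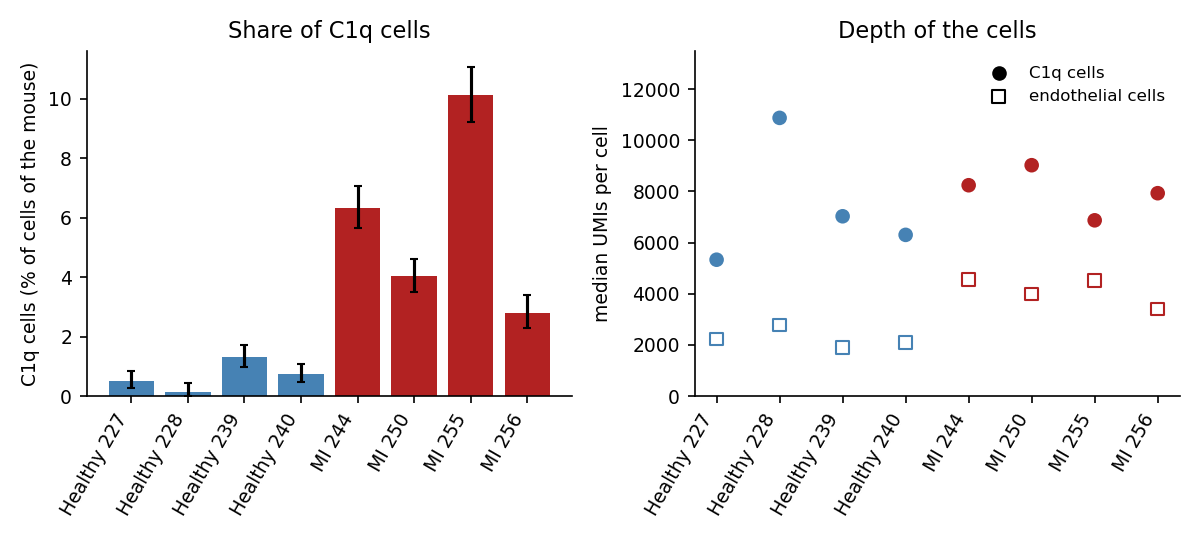
Left, bars give the share of C1q cells among the cells of each mouse in percent, with exact 95% binomial intervals. Right, median UMIs per cell of C1q cells (filled) and endothelial cells (open) of the same mice, healthy in blue and MI in red; the 4 MI shares, 2.79 to 10.1%, lie above the 4 healthy shares, 0.123 to 1.31%, and C1q cells are deeper than endothelial cells in all 8 mice.

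C1q cells held more RNA per cell than the endothelial cells of the same mouse. The median was 5330 UMIs in Healthy 227, 10875.5 in Healthy 228, 7028.5 in Healthy 239 and 6301.5 in Healthy 240, against 2234, 2775, 1898 and 2098 UMIs in endothelial cells. In MI 244, 250, 255 and 256 the medians were 8242, 9025, 6870.5 and 7930.5 UMIs, against 4559, 3985, 4526.5 and 3406. The ratio of C1q to endothelial medians was 3.03 ± 0.66 in 3 healthy mice and 1.98 ± 0.39 in 4 MI mice (difference -1.05, exact permutation p = 0.0571, the smallest that 3 against 4 can give, so this design cannot reach 0.05). The median share of mitochondrial UMIs in C1q cells was 3.07, 4.63, 2.93 and 4.43% in Healthy 227, 228, 239 and 240 and 2.27, 2.16, 2.19 and 2.66% in MI 244, 250, 255 and 256. Every healthy mouse lay above every MI mouse, and the part of this difference in the results between MI and healthy mice was not tested.

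The rule asked for at least 2 of the C1q chains in a cell, so that the chains lie together is not a finding. C1qa, C1qb and C1qc gave 37.0, 38.0 and 25.0% of the C1q UMIs, a cell held a median of 98 C1q UMIs (4 to 536), and 90.9% of the cells had all 3 genes at 2 or more UMIs. By mouse the share of C1qa was 34.1 to 42.0%, that of C1qb 30.7 to 40.9% and that of C1qc 24.7 to 27.3%. Summed over the C1q cells of a mouse and scaled to the same total in every mouse (CPM, on which scale 1 of the 86044 UMIs of Healthy 227 is 11.6), C1qa was at 4219, 6282 and 7262 CPM in Healthy 227, 239 and 240 and at 4278, 4646, 4384 and 4697 in MI 244, 250, 255 and 256. C1qb averaged 4787 ± 602 CPM in healthy and 4910 ± 763 in MI mice, and C1qc 3869 ± 992 and 3118 ± 315. The healthy and MI levels of each chain overlapped.

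Many cells held C1q UMIs below the limits of the rule. Just inside it, 102 cells (99 from MI mice) had only 2 of the 3 genes at 2 or more UMIs: they held a median of 5 C1q UMIs and 11847 UMIs in all, 48.0% had at least 2 of the macrophage genes Csf1r, Adgre1, Ms4a7, Tyrobp and Fcer1g, and 92.2% had a UMI of the endothelial genes Cdh5 or Kdr. The 1015 cells with all 3 genes held a median of 109 C1q UMIs and 7548 UMIs in all, and the same shares were 99.6% and 64.7%. Just outside, 828 cells (827 from MI mice) missed only on the number of C1q UMIs, with a median of 3: 22.1% had at least 2 macrophage genes, 97.5% had Cdh5 or Kdr, and 85.0% were endothelial by their own markers. A further 6501 cells had C1q UMIs but no C1q gene at 2, and 94.8% of these were endothelial by their own markers, and 12 cells had the C1q genes but no UMI of Ctss or Lyz2.

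The cells carried the macrophage markers that the rule had not used. Ms4a7, a membrane protein of macrophages, had a UMI in 86.8% of C1q cells against 4.29% of endothelial cells, Csf1r, the receptor for macrophage colony-stimulating factor, in 86.5% against 1.35%, Adgre1, which encodes F4/80, in 78.7% against 0.759%, and Ptprc, which encodes the leukocyte antigen CD45, in 65.0% against 0.372%. Apoe, a lipid carrier, was in 99.6% of C1q cells but also in 71.2% of endothelial cells. C1q cells were deeper (median 7732 UMIs against 3117), which raises such shares. The markers of the gate were less clear: Pecam1, which encodes CD31, had a UMI in 59.8% of C1q cells against 88.2% of endothelial cells, Pdgfb, whose promoter drives the Cre, in 30.7% against 31.5% (5.73% and 11.4% at 1000 UMIs), and Pdpn, which encodes podoplanin, in 7.16% against 0.193%. The Confetti reporter was not analysed here.

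Endothelial cells also held some C1q RNA. A UMI of any C1q gene was found in 4.50% of endothelial cells of healthy and 42.6% of those of MI mice, or 2.08% and 11.6% at 1000 UMIs; free RNA in the droplets and droplets that hold a pair of cells cannot be told apart here. In level, C1qa was at 7.36 CPM in healthy and 41.2 CPM in MI endothelial cells, C1qb at 5.94 and 51.8, and C1qc at 3.76 and 25.4. Ctss was at 1814 ± 779 CPM in healthy and 3127 ± 300 CPM in MI C1q cells, against 1.61 and 24.0 CPM in endothelial cells. The summed level of 18 genes of macrophages in general was 25444 to 34333 CPM in healthy and 47638 to 52727 CPM in MI C1q cells, and 340.3 to 451 and 746 to 1111 CPM in endothelial cells.

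The comparison of MI with healthy C1q cells asked how the macrophages of the sorted fraction differed 7 days post-MI. It was tested with edgeR's quasi-likelihood test on UMI counts summed over the C1q cells of each mouse (3 healthy and 4 MI), with p-values adjusted over 8204 genes. C1q cells gave 86044, 384764 and 176683 UMIs in Healthy 227, 239 and 240 and 2780935, 2023668, 3651503 and 907114 UMIs in MI 244, 250, 255 and 256, so the healthy side rests on fewer cells. The labels name the mice but no batch, and p-values measure the spread between these mice. At an adjusted p of 0.05 or less 384 genes were called, 4.68% of those tested: 167 were higher in MI (2.04%) and 217 lower (2.65%). At an unadjusted p of 0.05 or less 1547 genes passed. The CPM of the mice did not overlap between the groups for 1735 genes, 21.1%.

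Genes known from resident cardiac macrophages were lower in MI. Of 17 such genes 13 fell and none rose, with a median log2 fold change of -2.48 against 0.02 over all genes tested, where 2.65% fell. With cells thinned to 1000 UMIs 10 of 13 tested fell (median -1.42), where 55 of all 1572 genes fell. Lyve1 was at 325, 444 and 572 CPM in Healthy 227, 239 and 240 and at 34.9, 51.9, 49.6 and 33.1 CPM in MI 244, 250, 255 and 256. In Healthy 227 a single cell held 75.0% of the Lyve1 UMIs, and without it that mouse was at 94.5 CPM, still above the MI mice. The level over all cells fell 10.6-fold (log2 fold change -3.41 ± 0.21 SE, adjusted p = 3.3e-06).

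Timd4, a receptor for phosphatidylserine on dying cells, was at 81.4, 114 and 84.9 CPM in the healthy mice and at 7.55, 12.8, 3.56 and 12.1 CPM in the MI mice (log2 fold change -3.66 ± 0.41, adjusted p = 0.0003). It had a UMI in 42.0% of healthy and 2.92% of MI C1q cells, against 0.0266% of endothelial cells, and in 11.4% and 0.486% of C1q cells at 1000 UMIs. Folr2, a folate receptor, was at 546, 824 and 1155 CPM in healthy and 84.9, 115, 108 and 86.0 CPM in MI mice (-3.11 ± 0.24, adjusted p = 1.1e-05). For both genes all healthy mice lay above all MI mice, and the calls stayed when any 1 mouse was left out (highest adjusted p = 0.019 for Timd4 and 0.00014 for Folr2).

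Most of the other resident genes were also called lower. Cd163, which takes up haemoglobin bound to haptoglobin, fell from 132 ± 45.6 to 14.6 ± 3.0 CPM (-3.33 ± 0.26, adjusted p = 1.2e-05). Cbr2, a carbonyl reductase, fell from 606 ± 242 to 66.8 ± 19.5 CPM (-3.24 ± 0.29), and F13a1, the A chain of coagulation factor XIII, from 810 ± 346 to 132 ± 37.8 CPM (-2.65 ± 0.29). The mannose receptor Mrc1 was at 790, 387 and 651 CPM in the healthy and 122, 147, 144 and 192 CPM in the MI mice (-1.97 ± 0.25, adjusted p = 0.0008), again without overlap. Vsig4, a receptor for complement C3 fragments (-3.20), Ltc4s, which makes leukotriene C4 (-1.71), and Gas6, which bridges dying cells to their receptors (-1.21), fell as well, though the mice overlapped for Vsig4 and Ltc4s. Those calls were lost without Healthy 239 (adjusted p = 0.075, 0.079 and 0.064), and those of Vsig4 and Ltc4s also without Healthy 240 (0.21 and 0.15, at log2 fold changes of -2.27 and -1.10) or MI 255 (0.052 and 0.064). Igf1, a growth factor, was at 286 ± 126 and 216 ± 39.4 CPM (adjusted p = 0.63) and Fcrls, an Fc receptor-like gene, at 362 ± 133 and 597 ± 157 CPM (adjusted p = 0.20); Fcna and Sepp1 were also not called.

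**Figure D2:**
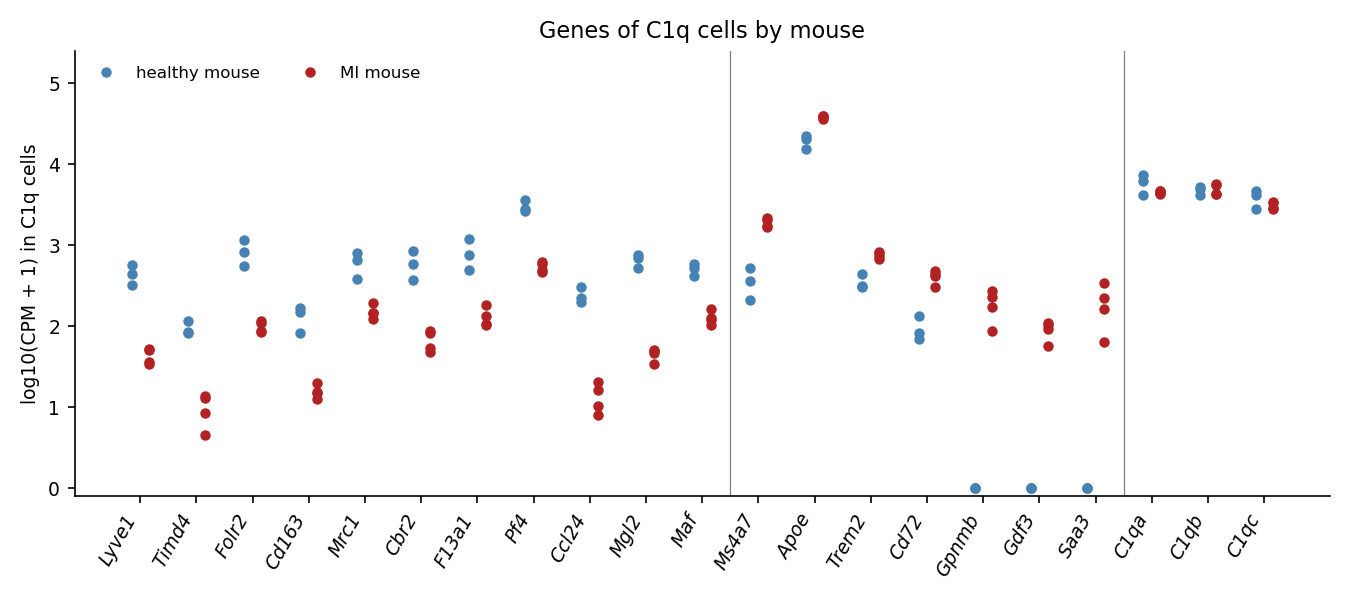
Level of named genes in the C1q cells of each mouse as log10(CPM + 1), 3 healthy mice in blue and 4 MI mice in red. The resident and other lower genes on the left, from Lyve1 to Maf, lie lower in every MI mouse, the genes in the middle lie higher, with Gpnmb, Gdf3 and Saa3 at 0 in all 3 healthy mice, and the C1q chains on the right overlap.

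Other genes with large falls included the chemokines Ccl24 and Pf4, the lectin Mgl2 and the transcription factor Maf. Ccl24, a chemokine for eosinophils, was at 302, 198 and 221 CPM in the healthy and at 9.35, 19.3, 7.12 and 15.4 CPM in the MI mice, a 19.3-fold fall (-4.27 ± 0.32, adjusted p = 1.1e-05). Mgl2, a galactose-type lectin, was at 523, 759 and 691 CPM in healthy and 49.6, 46.0, 33.1 and 48.5 CPM in MI mice, a 15.3-fold fall (-3.94 ± 0.20, adjusted p = 4.5e-07). Both genes separated the groups fully.

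Pf4, platelet factor 4, which cardiac macrophages also make, was at 2627, 2778 and 3566 CPM in healthy and 492, 579, 461 and 614 CPM in MI mice (-2.48 ± 0.19, adjusted p = 1.1e-05); it had a UMI in 93.2% of healthy and 59.4% of MI C1q cells (84.1% and 28.1% at 1000 UMIs), against 6.25% of endothelial cells. Fxyd2 (-3.22; -2.52 without Healthy 240), the signalling adaptor Dok2 (-2.67) and Hpgd, which breaks down prostaglandins (-2.49), were also among the 10 lowest named genes. The transcription factor Maf fell from 504 ± 86.4 to 127 ± 24.8 CPM (-1.97 ± 0.20, adjusted p = 0.0002). S100a4, a calcium-binding protein, fell from 338 ± 65.4 to 131 ± 19.0 CPM (-1.33 ± 0.20).

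Among 18 genes of macrophages in general, 4 rose and 1 fell, with a median log2 fold change of 0.01 against 0.02 over all genes. Ms4a7 was at 523, 211 and 362 CPM in the healthy and at 1692, 1726, 2140 and 2077 CPM in the MI mice. Each MI mouse was above each healthy mouse, and the level was 5.52-fold higher (2.46 ± 0.27, adjusted p = 0.0003). At 1000 UMIs Ms4a7 was found in 25.0% of healthy and 69.3% of MI C1q cells.

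Apoe was at 20559, 15521 and 22006 CPM in healthy and 36135, 38047, 39494 and 39185 CPM in MI mice (0.99 ± 0.15, adjusted p = 0.0025). Trem2, a lipid receptor of phagocytes, was at 302, 309 and 441 CPM in healthy and 746, 670, 832 and 798 CPM in MI mice (1.11 ± 0.19, adjusted p = 0.0058). Cd14, a co-receptor for bacterial lipopolysaccharide, rose from 560 ± 135 to 979 ± 137 CPM (0.78 ± 0.19, adjusted p = 0.037), a call lost without any 1 of Healthy 227, Healthy 240, MI 244, MI 250 and MI 255 (adjusted p = 0.056 to 0.11). Adgre1 was at 401 ± 144 and 412 ± 61.2 CPM and Csf1r at 813 ± 228 and 509 ± 32.5 CPM, neither called (adjusted p = 1.0 and 0.061), although Csf1r was called lower without Healthy 227 (-0.84, adjusted p = 0.020).

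Several genes had UMIs in MI C1q cells and none in healthy ones. Gpnmb, a lysosome-associated glycoprotein, was at 0 in the 3 healthy mice and at 87.0, 174, 232 and 274 CPM in the MI mice, at least 39.0-fold higher against a floor of 3 UMIs over the healthy group (adjusted p = 0.0045). Gdf3, a growth factor of the TGF-beta family, was at 55.4, 103, 108 and 92.6 CPM in the MI mice, at least 19.4-fold higher (adjusted p = 0.0037). Gpnmb was spread over 57, 57, 134 and 30 cells of MI 244, 250, 255 and 256, 27.0% of MI C1q cells; it was in 0 of 88 healthy C1q cells and in 0.493% of endothelial cells. By counting error alone, 0 of 88 allows a share of cells with a UMI of up to 3.41%, which limits neither the spread between mice nor the share of cells that express the gene.

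Another such gene lay in few cells. Saa3, an acute-phase serum amyloid, was at 63.3, 342, 161 and 222 CPM, at least 38.2-fold higher (adjusted p = 0.019), in 10, 17, 20 and 8 cells. A single cell held 56.4% of the Saa3 UMIs of MI 250 and 66.7% of those of MI 256, and without it the levels were 149.6 and 74.8 CPM. Without Healthy 239, the healthy mouse with most C1q cells, neither Gpnmb nor Saa3 was called (adjusted p = 0.051 and 0.13), and Saa3 was not called without Healthy 240 either (0.066), whereas Gdf3 stayed (highest adjusted p = 0.041 over all mice left out).

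Lrg1, a glycoprotein of inflamed vessels, was at 11.6, 0 and 11.3 CPM in the healthy and 320, 282, 563 and 194 CPM in the MI mice (adjusted p = 0.00032). Its 3 healthy UMIs against 3693 gave a ratio of 85.1 (95% counting interval 29.1 to 413), and endothelial cells held it at 7.31 CPM in healthy and 329 CPM in MI mice. Plvap, the diaphragm protein of fenestrated endothelium, was at 46.5, 26.0 and 5.66 CPM in healthy and 449, 307, 675 and 214 CPM in MI mice (4.14 ± 0.53, adjusted p = 0.0008); it lay in 1 C1q cell of each healthy mouse and in 129, 76, 245 and 30 C1q cells of the MI mice. Both are known from endothelium. Syngr1, a vesicle protein, rose from 5.66 ± 9.80 to 88.5 ± 15.8 CPM (adjusted p = 0.0027; 0.0022 to 0.043 with 1 mouse left out). All 3 of its healthy UMIs were from Healthy 240, against 825 in MI, a ratio of 19.0 (95% counting interval 6.48 to 92.4), and the fitted log2 fold change was 2.98 without Healthy 239 and 10.19 without Healthy 240. Other named genes that rose were Igfbp3 (2.72), Col18a1 (2.74) and Grrp1 (2.80), and, named through the other comparisons, Upp1 (3.11), Igfbp5 (2.59) and Aplnr (2.53). Col18a1 and Igfbp5 were also among the 10 highest named genes in C1q cells with Cdh5 or Kdr. The part of endothelial RNA in these rises was not tested. Without Healthy 239 Igfbp3 was at 4.01 and Grrp1 at 4.49, and Grrp1 was not called without Healthy 239 or Healthy 240 (adjusted p = 0.058 and 0.057).

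Of 10 tested genes of monocytes and recently recruited macrophages 2 rose and 1 fell (2.04% and 2.65% of all genes), with a median log2 fold change of 1.45. Plac8, Chil3 and Ms4a4c had 1, 2 and 1 healthy UMIs, against 606, 336 and 819 in MI. Genes with so few healthy UMIs could pass the filter on low counts only through the MI mice, which sets the count and median in part. Without Healthy 227 the list gave 4 higher of 11 (median 2.13; 1.86% of all genes rose), without Healthy 240 2 of 11 (0.93; 0.962%), without the deepest 20% of cells 5 of 9 (2.48; 3.42%) and with cells thinned to 1000 UMIs none of 5 (0.98). Ms4a4c, of monocytes, rose from 1.89 ± 3.27 to 85.9 ± 10.4 CPM (adjusted p = 0.00024; 0.00024 to 0.0064 with 1 mouse left out). Its healthy level was 1 UMI of Healthy 240, against 819 in MI, so the ratio of 56.6 had a 95% counting interval of 10.1 to 2240, and the fitted log2 fold change ran from 4.51 without Healthy 239 to 10.16 without Healthy 240. Fibronectin, Fn1, rose from 47.6 ± 26.9 to 217 ± 49.7 CPM (2.09 ± 0.35, adjusted p = 0.0047; 2.84 without Healthy 239); the gene that fell was S100a4. Ccr2 was at 151, 49.4 and 0 CPM in healthy and 147, 122, 114 and 148 CPM in MI mice, and Healthy 227, where 1 cell held 76.9% of the UMIs, overlapped the MI mice (adjusted p = 0.12). Without Healthy 227 Ccr2 was called higher in MI (2.02, adjusted p = 0.034).

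Lysosomal and lipid-handling genes gave few calls over all C1q cells and more when some cells were left out. Of 22 tested, 3 rose (Gpnmb, Plin2 and Fabp4) and none fell, with a median of 0.22. Plin2, which coats lipid droplets, was at 128, 122 and 232 CPM in the healthy and 309, 325, 424 and 358 CPM in the MI mice (1.15 ± 0.24, adjusted p = 0.020; 0.12 without Healthy 239). Over the cells with all 3 C1q genes 11 of 22 rose (median 0.70; 2.91% of all genes rose there), and over the C1q cells without Cdh5 or Kdr 10 of 21 (median 0.73). Without Healthy 239 none of 23 was called, where 91 of all 9668 genes tested were called higher. Without Healthy 240 9 of 23 rose, where 0.962% of all genes rose.

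A single deep cell of Healthy 240 held much of the healthy RNA of several of these genes. It had 27038 UMIs, against 12355 in the next deepest C1q cell of that mouse, with 2 UMIs of C1qa, 10 of C1qb and 1 of C1qc. Its UMIs included 1691 of Ftl1, 492 of Lgals3, 283 of Fabp5 and 258 of Ctsd, and none of Ms4a7, Lyve1, Mrc1, Spp1 or Gpnmb. The cell gave 90.9% of the Lgals3, 91.6% of the Fabp5 and 65.3% of the Ctsd UMIs of the C1q cells of its mouse.

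Lgals3, the galactose-binding galectin-3, was at 523, 252 and 3062 CPM in Healthy 227, 239 and 240 and at 1185, 981, 1355 and 1447 CPM in the MI mice (log2 fold change -0.05, adjusted p = 0.98). Without the highest cell Healthy 240 was at 327 CPM, and Healthy 227, where 1 cell held 75.6% of the UMIs, at 167 CPM. With the 20% of C1q cells with most UMIs left out, the log2 fold change of Lgals3 was 2.33 (adjusted p = 1.4e-05; 3.42% of all genes rose in that fit), and the lipid and lysosome list gave 12 higher of 22. That setting was chosen after the data were seen.

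Fabp5, a fatty acid-binding protein, was at 267, 166 and 1749 CPM in healthy and 708, 890, 840 and 772 CPM in MI mice, and without the highest cell Healthy 240 was at 174 CPM and Healthy 227, where 1 cell held 60.9% of the UMIs, at 120.2 CPM. Ctsd, the lysosomal protease cathepsin D, was at 709, 455 and 2236 CPM in healthy and 2293, 2550, 2512 and 2550 CPM in MI mice, and Healthy 240 was at 916 CPM without that cell. For both genes Healthy 227 and 239 lay below all 4 MI mice. Spp1, osteopontin, was at 604, 15.6 and 5.66 CPM in healthy and 1038, 660, 1225 and 745 CPM in MI mice (2.66 ± 0.88, adjusted p = 0.11); in Healthy 227 a single cell held 75.0% of it, and without that mouse the log2 fold change was 6.22 (adjusted p = 2e-05). Without Healthy 240 Fabp5 and Ctsd were called higher in MI (2.05 and 2.20, adjusted p = 0.0012 and 0.00022). With 1 mouse left out the log2 fold change of Fabp5 ran from -0.36 to 2.05 (highest adjusted p = 0.99). That of Ctsd ran from 0.76 to 2.20 (highest adjusted p = 0.32). Spp1 had a UMI in 9.09% of healthy and 60.3% of MI C1q cells (2.27% and 31.0% at 1000 UMIs), against 2.87% of endothelial cells.

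**Figure D3:**
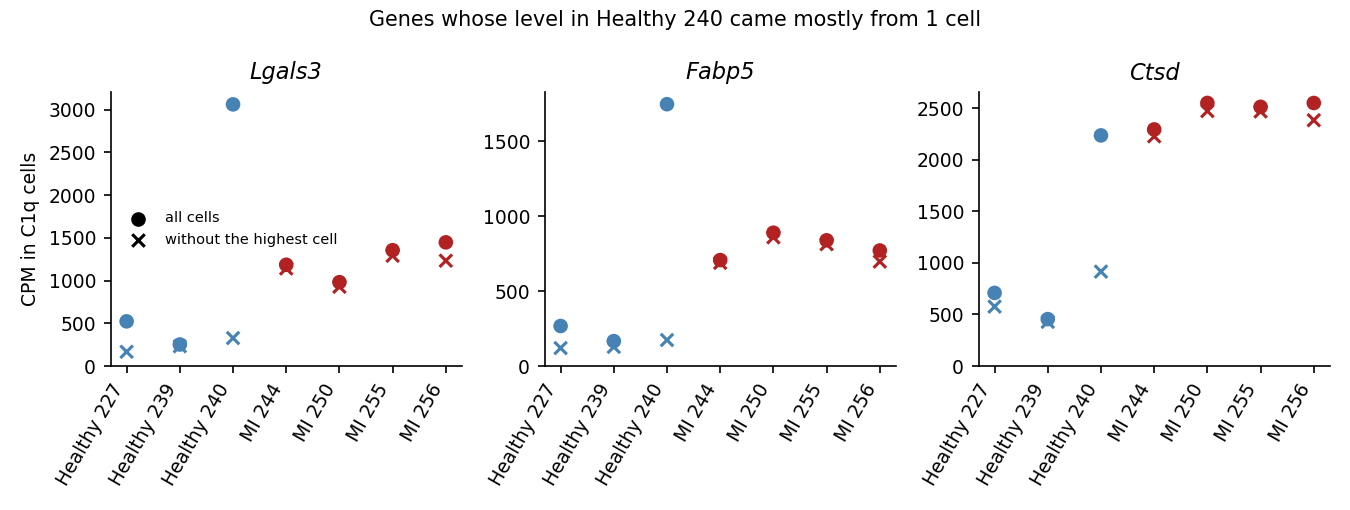
Level of Lgals3, Fabp5 and Ctsd in CPM in the C1q cells of each mouse, over all C1q cells (circles) and without the cell with most UMIs of the gene (crosses), healthy in blue and MI in red. In Healthy 240 the level of Lgals3 drops from 3062 to 327 CPM and that of Fabp5 from 1749 to 174 CPM without 1 cell, and in Healthy 227 Lgals3 drops from 523 to 167 CPM, while the 4 MI mice hardly move.

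**Figure D4:**
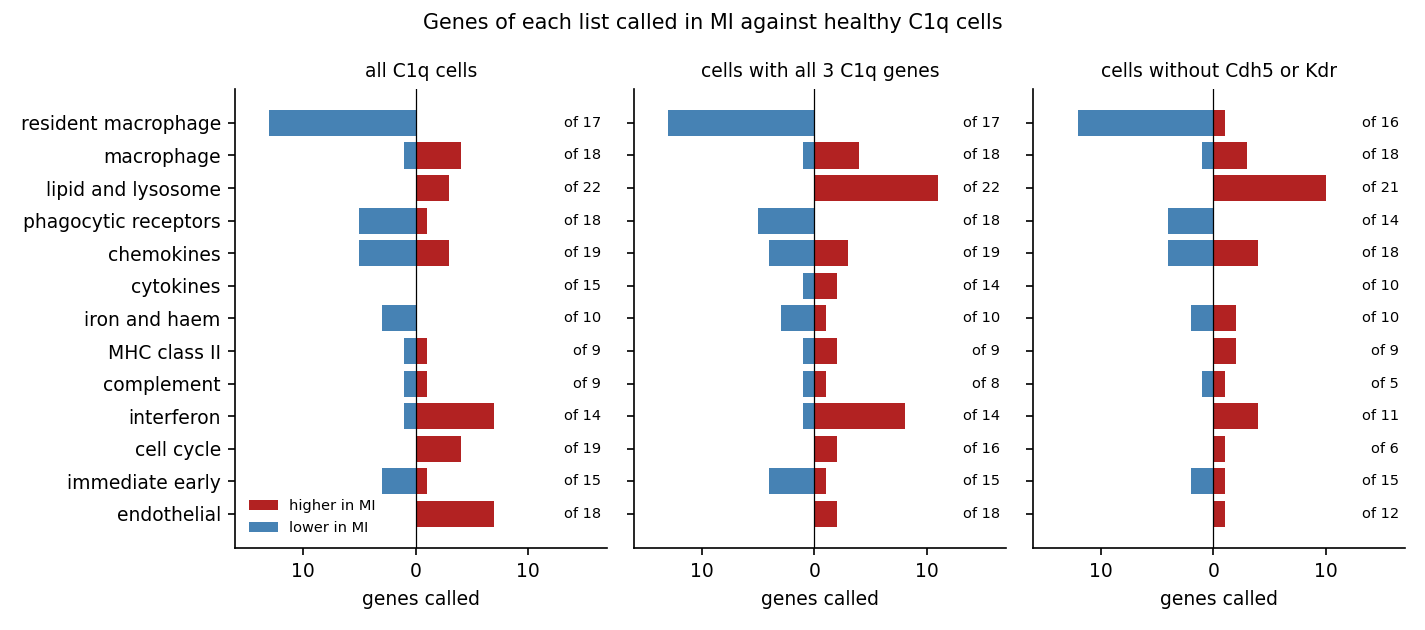
Number of genes of each list that were called higher (red) or lower (blue) in MI than in healthy C1q cells, over all C1q cells, over the cells with all 3 C1q genes and over the cells without Cdh5 or Kdr, with the number tested beside each bar. The resident list falls in all 3 panels (13 of 17, 13 of 17 and 12 of 16), while the lipid and lysosome list goes from 3 to 11 and 10 higher.

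Most genes of the complement system were not called. Of 9 tested, the C1q genes left out, 1 rose and 1 fell, with a median of 0.51 (-0.29 over the 5 tested in cells without Cdh5 or Kdr). C3ar1, the receptor for the C3a fragment, rose from 232 ± 39.0 to 394 ± 11.5 CPM (0.76 ± 0.18, adjusted p = 0.029). The call of C3ar1 was lost without Healthy 239 (adjusted p = 0.12), MI 244 (0.051), MI 250 (0.060) or MI 255 (0.071). C4b had a log2 fold change of 0.51 and Serping1, which inhibits the C1 proteases, of -1.80, neither of them called.

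Chemokines and their receptors moved both ways, with 3 of 19 higher, 5 lower and a median of 0.01. Ccl4 was at 418, 736 and 136 CPM in the healthy and 1878, 1108, 1440 and 1902 CPM in the MI mice (1.85 ± 0.40, adjusted p = 0.022), a call lost without Healthy 227 (0.065); without Healthy 239 the log2 fold changes of Ccl4 and Ccl3 were 2.68 and 2.05. Ccl3, like Ccl4 a chemokine of inflammation, was at 255 ± 139 and 682 ± 177 CPM (1.35 ± 0.33, adjusted p = 0.033), and Cxcl16, a scavenger receptor and T cell chemokine, at 244 ± 50.1 and 512 ± 52.6 CPM (1.12 ± 0.19, adjusted p = 0.0052). Besides Ccl24 and Pf4 those that fell were Ccl6 (-1.65; -0.92 without Healthy 240), Ccl9 (-1.12) and the receptor Ccr1 (-1.05). Ccl3, Ccl6, Ccl9 and Ccr1 each lost their call without Healthy 240 (adjusted p = 0.11, 0.099, 0.23 and 0.11), without MI 244 (0.063, 0.050, 0.10 and 0.052) and without MI 255 (0.058, 0.056, 0.11 and 0.052); Ccl3 also lost it without Healthy 227 (0.090) or MI 256 (0.051), Ccl9 without Healthy 239 (0.14) or MI 250 (0.066) and Ccr1 without Healthy 239 (0.16). The monocyte chemokines Ccl2, Ccl7 and Ccl12 were not called, at log2 fold changes of -0.23, -0.23 and -0.37. None of 15 cytokines and growth factors passed (median -0.02); Tgfb1 was at 308 ± 49.8 and 264 ± 22.7 CPM and Il1b had a log2 fold change of 0.45.

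Of 18 receptors and bridging proteins for the uptake of dead cells 5 fell and 1 rose (median -0.33). Those that fell were Timd4, Cd163, Mrc1 and Gas6, which are also on the resident list, and Stab1, a scavenger receptor that went from 441 ± 118 to 197 ± 33.1 CPM (-1.13 ± 0.22, adjusted p = 0.012; 0.081 without Healthy 240). The gene that rose was Scarb1, the receptor for high-density lipoprotein (1.19 ± 0.27, adjusted p = 0.026), whose call was lost without any 1 of Healthy 239, Healthy 240, MI 244, MI 250 and MI 255 (0.051 to 0.13). Mertk and Axl, receptors that bind Gas6, had log2 fold changes of 0.14 and -0.03 and were not called.

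Genes of iron and haem gave 3 lower and none higher of 10 (median -0.50) over all C1q cells, and 2 lower and 2 higher (median -0.22) over those without Cdh5 or Kdr. Slc40a1, ferroportin, which exports iron, fell from 124 ± 85.0 to 24.1 ± 7.70 CPM (-2.35 ± 0.44, adjusted p = 0.010; -1.53 and 0.10 without Healthy 240), and Blvrb, biliverdin reductase B, from 426 ± 136 to 176 ± 24.1 CPM (-1.28 ± 0.22, adjusted p = 0.0052); Cd163 was the other one. Hmox1, which opens the haem ring, and the ferritin chains Fth1 and Ftl1 were not called (-0.66, 0.35 and -0.12), but in the cells without Cdh5 or Kdr Fth1 and Ftl1 rose (0.89 and 0.75, adjusted p = 0.014 and 0.013). With all 3 C1q genes required, or without the deepest 20% of cells, 1 of the list rose and 3 fell.

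H2-Aa, an MHC class II chain, was at 5346, 5247 and 1087 CPM in the healthy and 4912, 2384, 2777 and 2734 CPM in the MI mice (-0.28 ± 0.41, adjusted p = 0.79). The lowest and the highest of all 7 mice were healthy ones. Of 9 tested genes Cd72, an inhibitory co-receptor, rose (93.9 ± 34.1 to 413 ± 77.4 CPM, 2.03 ± 0.25, adjusted p = 0.00066) and Cd86, a co-stimulator of T cells, fell (183 ± 43.2 to 99.2 ± 11.0 CPM, -0.82 ± 0.19, adjusted p = 0.027); Cd86 kept its call only without MI 256 (adjusted p = 0.058 to 0.12 without any other mouse). The median of the list was -0.37.

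Interferon-induced genes gave 7 higher and 1 lower of 14 (median 1.22). Irf7, the transcription factor that amplifies the response, was at 34.9, 46.8 and 34.0 CPM in the healthy and 183, 222, 314 and 227 CPM in the MI mice (2.53 ± 0.29, adjusted p = 0.00038), and Ifit1, which binds viral RNA, at 10.7 ± 10.4 and 83.6 ± 15.3 CPM (2.45 ± 0.43, adjusted p = 0.0058; 3.48 without Healthy 239). Ifit2, Ifit3, Rsad2, Isg15 and Oasl2 rose with log2 fold changes of 1.18 to 2.07. Ifi27l2a fell, from 2123 ± 554 to 1094 ± 278 CPM (-0.94 ± 0.24, adjusted p = 0.044), and kept its call only without MI 256 (0.057 to 0.15 without any other mouse). Without Healthy 239 Ifit2, Ifit3, Rsad2, Isg15 and Oasl2 were not called (0.13, 0.079, 0.082, 0.20 and 0.055), and Ifit2, Ifit3 and Isg15 were not called without Healthy 240 (0.079, 0.056 and 0.14); Isg15 was not called without MI 244, MI 250 or MI 255 either (0.051 to 0.094). With each cell thinned to 1000 UMIs only 7 of these genes passed the filter on low counts and 1 was called.

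Of 19 genes of the cell cycle 4 rose and none fell, against 2.04% and 2.65% of all genes. Mki67, Top2a, Ube2c, Cenpf, Cdc20 and Rrm2 had 1 or 2 healthy UMIs each, and 2 other genes had none. Such genes could pass the filter on low counts only through the MI mice, so that none fell is set in part by the filter. The median was 2.66, or 1.64 with the 2 genes that had no healthy UMI set to their lower bound, and it rested on genes with few healthy UMIs. It was 1.17 with DESeq2 (7 of 15 called), 0.82 with all 3 C1q genes required (2 of 16), 0.25 without the deepest 20% of cells (1 of 10) and 0.05 in the cells without Cdh5 or Kdr (1 of 6), and 0.80, 0.78 and 0.75 without MI 244, MI 250 and MI 255 (4, 2 and 2 of 12). The genes that rose were Mki67 (1.73 ± 3.0 to 26.4 ± 8.28 CPM, adjusted p = 0.038; 2 healthy UMIs), the nucleotide-making enzyme Rrm2 (1.89 ± 3.27 to 26.6 ± 6.09 CPM, adjusted p = 0.019; 1 healthy UMI), Stmn1 (1.11) and Hmgb2 (1.17). Without any 1 of the healthy mice, MI 250 or MI 255 neither Mki67 (0.058 to 0.13) nor Stmn1 (0.063 to 0.16) was called, and Rrm2 was not called without Healthy 239 (0.18). The count of the list was 1 without Healthy 239, where 91 of all 9668 genes rose. It was 12 without MI 256, where 2.63% of all genes rose. A cell was taken to carry the cycle when at least 2 of 10 mitotic genes had a UMI: at 1000 UMIs this held for none of the cells of 3 healthy mice and for 0 to 3.47% of the cells of the MI mice (mean 2.32 ± 1.62, exact permutation p = 0.229), and at full depth for 6.22 ± 9.10% and 21.2 ± 2.27% (exact permutation p = 0.0571). The healthy side of the thinned share rests on 12, 50 and 24 cells.

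Immediate early and heat shock genes, which respond to tissue dissociation, gave 1 higher and 3 lower of 15 (median -0.35). Hspa1a was at 1406, 1700 and 1058 CPM in the healthy and 415, 626, 257 and 407 CPM in the MI mice (-1.70 ± 0.27, adjusted p = 0.0033), with all healthy mice above all MI mice. Hspa1b (-1.85) and Klf6 (-0.73) fell and the nuclear receptor Nr4a1 rose (1.20 ± 0.28, adjusted p = 0.030). Hspa1b was not called without Healthy 239 (0.18), Klf6 without any 1 of Healthy 227, Healthy 239, MI 244, MI 250 and MI 255 (0.053 to 0.11), and Nr4a1 without any 1 of Healthy 239, Healthy 240, MI 244 and MI 250 (0.051 to 0.082). Fos, Jun and Egr1 were not called, with log2 fold changes of -0.16, -0.67 and -0.57.

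Endothelial genes had UMIs in C1q cells, and some of them were higher in MI. Of 18 tested 7 rose and 11 were not called, with a median of 0.73: Cdh5, Egfl7, Tie1, Esam, Emcn, Fabp4 and Plvap. Cdh5, the cadherin of endothelial junctions, was at 132 ± 75.2 CPM in healthy and 321 ± 71.3 CPM in MI C1q cells (1.11 ± 0.29, adjusted p = 0.045), against 1071 and 990.2 CPM in endothelial cells. Kdr, the main receptor for vascular endothelial growth factor, was at 136 ± 40.1 and 152 ± 27.0 CPM (adjusted p = 0.80), against 851 and 494 CPM. Emcn, a sialoglycoprotein of veins and capillaries, was at 69.7, 130 and 108 CPM in the healthy and 266, 256, 311 and 184 CPM in the MI mice (1.20 ± 0.23, adjusted p = 0.010). Fabp4, a fatty acid-binding protein of capillaries, was at 2590 ± 274 and 4148 ± 478 CPM in C1q cells (0.68 ± 0.15, adjusted p = 0.024), against 17810 and 14665 CPM in endothelial cells. Plvap and Emcn stayed called whichever mouse was left out, and Cdh5, Egfl7, Tie1, Esam and Fabp4 each lost their call without any 1 of at least 4 of the 7 mice, MI 244, MI 250 and MI 255 among them (adjusted p = 0.051 to 0.17), so that 2 to 8 of the list rose with 1 mouse left out (2 without MI 244, MI 250 or MI 255). The log2 fold change of Cdh5 was 1.86 without Healthy 239. Over the cells with all 3 C1q genes 2 of 18 were called and over those without Cdh5 or Kdr 1 of 12. The part of endothelial RNA in the other results was not tested, apart from the calls in cells without Cdh5 or Kdr given further on.

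The list of endothelial genes, taken over 16 genes without Cdh5 and Kdr, reached 14.6 to 18.2% of its level in endothelial cells of the same mouse in healthy C1q cells and 25.1 to 37.2% in MI C1q cells. In B cells, which should lack most of these genes, it reached 9.41 to 25.7% and 25.1 to 47.9%, in other myeloid cells 8.19 to 20.4% and 50.6 to 68.8%, and in pericytes 28.4 to 46.6% and 48.6 to 58.9%. The list holds Pecam1, which encodes the CD31 of the gate, and Fabp4, which is also on the lysosomal and lipid-handling list. For such genes RNA of the cells' own and endothelial RNA cannot be told apart. In the 5 mice with both kinds, C1q cells were below B cells in Healthy 227 and MI 250 and above them in Healthy 239, MI 244 and MI 255. C1q cells with a UMI of Cdh5 or Kdr were at 18.0 to 21.5% and 29.1 to 47.1%, and those without at 4.24 to 6.93% and 9.08 to 11.7%, which the choice of the cells sets in part.

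**Figure D5:**
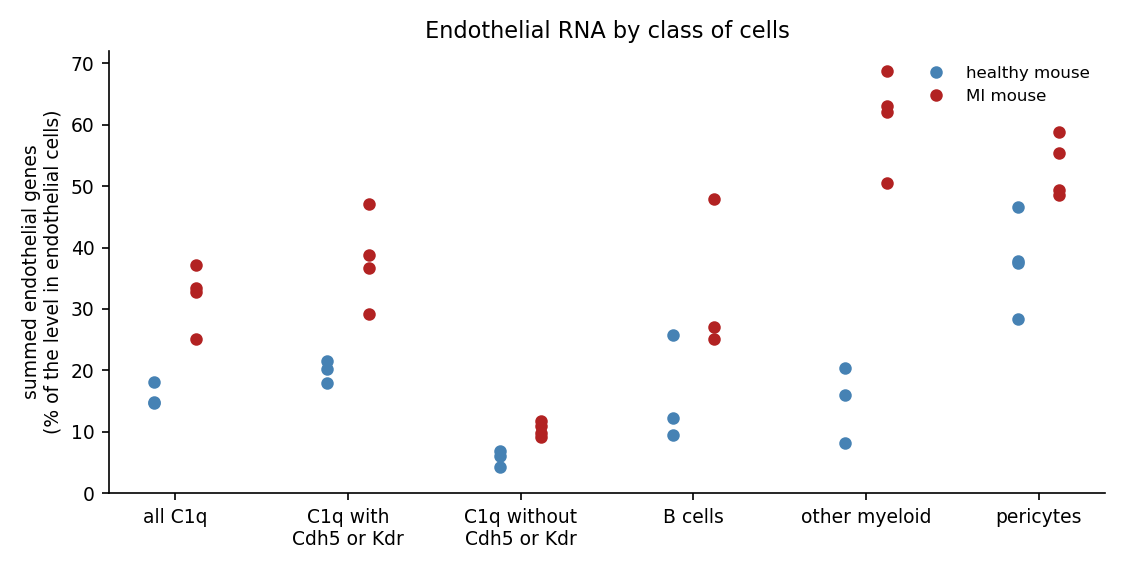
Summed level of 16 endothelial genes as a percentage of the level in endothelial cells of the same mouse, by class of cells, each point 1 mouse, healthy in blue and MI in red. C1q cells lie at 14.6 to 18.2% in healthy and 25.1 to 37.2% in MI mice, and B cells, other myeloid cells and pericytes also lie higher in MI mice for most points.

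Whether the change with MI in C1q cells differed from that in the endothelial cells of the same mice was tested as an interaction with the mouse as a block. Of 12307 genes 543 differed (4.41%), 278 with a more positive change in C1q cells (2.26%) and 265 with a more negative one (2.15%), and the median over all genes was 0.18. In endothelial cells alone 4381 of 12311 genes were called (35.6%), 17.8% higher and 17.8% lower, on far more cells. Of the 17 resident genes 5 passed the filter on low counts only through the C1q cells, so the count is given over the other 12: of these 11 had a more negative change in C1q cells (median -2.26), Lyve1 by -3.67 ± 0.35 (adjusted p = 4.5e-06) and Cbr2 by -3.22 ± 0.44 (adjusted p = 0.00011; -4.02 without Healthy 239 and -2.51 without Healthy 240).

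Macrophage genes in general had a more negative change in C1q cells as well, 13 of the 17 that endothelial cells also let through the filter (median -2.37). In endothelial cells, where their level was low, 16 of 17 tested were called higher in MI (17.8% of all genes), with a median of 2.51. Ms4a7 went from 0.258 to 14.8 CPM in endothelial cells and Tyrobp from 3.77 to 26.9 CPM. Ms4a6d (-6.10), Ccl8 (-4.39), Ptafr (-4.21) and Tgfbi (-3.79) led the negative side, and none of them was called in C1q cells themselves. On the positive side 13 of 18 endothelial genes had a more positive change in C1q cells (median 1.18), as did 6 of 14 interferon genes (1 was more negative, median 0.67), among them Ifit1 (2.22 ± 0.38) and Rsad2 (1.79 ± 0.30). Grrp1 (2.66), Gbp4 (2.41), Ccrl2 (2.31) and Aplnr, the apelin receptor (2.26), headed that side; without Healthy 239 the differences of Ifit1, Grrp1, Aplnr and Tgfbi were 3.44, 4.41, 1.57 and -4.56. Gbp4 was not called without Healthy 227 or Healthy 239 (0.080 and 0.052) and Ptafr not without Healthy 240 (0.051). In endothelial cells the list of endothelial genes itself had 2 of 18 higher and 6 lower (median -0.19), against 17.8% of all genes in each direction.

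C1q cells were then divided by whether they had a UMI of Cdh5 or Kdr. At 1000 UMIs the share that did was 16.7, 20 and 20.8% in Healthy 227, 239 and 240 and 27.8, 30.6, 24.8 and 21.0% in MI 244, 250, 255 and 256. The groups did not overlap, but MI 256 and Healthy 240 were close, and the means of 19.2 ± 2.20% and 26.0 ± 4.12% differed by 6.88 points (exact permutation p = 0.0571, the smallest possible with 3 against 4). At full depth the shares were 41.7, 66.0 and 62.5% and 72.2, 75.7, 61.1 and 66.0%, and overlapped. At 1000 UMIs the share was 16.0% of 25 healthy and 31.7% of 60 MI B cells, which should lack both genes, against 79.0% of endothelial cells. The C1q cells of the 3 healthy mice were above the healthy B cells and those of the 4 MI mice below the MI B cells.

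The 751 cells with Cdh5 or Kdr were deeper than the 366 without. Their median was 9329 UMIs against 5584, and 226 of them had a single UMI of these genes while 321 had 5 or more (highest 43). Within each of 7 mice the cells with were deeper: 9332 against 5144 UMIs in Healthy 239, 9260 against 6642 in MI 244 and 8846 against 5039 in MI 255. Between 29.9 and 81.8% of the cells with, and 2.47 to 58.8% of those without, had more UMIs than 95% of the endothelial cells of their mouse. No doublet caller was run here, so cells and droplets that hold a pair of cells cannot be told apart.

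In C1q UMIs per cell the cells with Cdh5 or Kdr and those without were closer than in all UMIs. The medians were 68 against 65 in Healthy 227, 121 against 109 in Healthy 239, 143 against 111 in Healthy 240, 97.5 against 98 in MI 244, 139 against 127.5 in MI 250, 77.5 against 79.5 in MI 255 and 114.5 against 110 in MI 256. As a fraction of their larger totals this came to 7895 to 15289 CPM of C1q RNA over the mice, against 16514 to 23406 CPM in the cells without. These levels are given without a test.

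Fitted in the 5 mice with at least 10 cells of each kind (Healthy 239 and the 4 MI mice) with the mouse as a block, 1790 of 6378 genes were called (28.1%), 879 higher in the cells with Cdh5 or Kdr (13.8%) and 911 lower (14.3%). Of 16 endothelial genes left after Cdh5 and Kdr were taken out, all 16 were higher (median 1.85 against 0.02 for all genes). The cells were divided by endothelial RNA, which sets this count in part, so it is a description and no independent support. Pecam1 averaged 412 CPM with and 66.8 CPM without (2.48 ± 0.13), and Flt1, a decoy receptor for vascular endothelial growth factor, 204 CPM (169 to 234 over the mice) and 23.3 CPM (0 to 34.6). Mmrn2, of the endothelial matrix, was at 151 and 12.1 CPM (3.37 ± 0.19). The other named higher genes were Ccl21a, Fbln2, Igfbp5, Ebf1, Nfib, Col18a1, Cald1 and Tshz2, with log2 fold changes of 2.79 to 5.05.

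As a fraction of all UMIs, all 18 genes of macrophages in general were lower in the cells with Cdh5 or Kdr (median -0.93). So were all 9 tested genes of antigen presentation (median -1.0) and 10 of 14 resident genes (median -0.60). The totals were larger in the cells with Cdh5 or Kdr (median 9329 against 5584 UMIs), which lowers such fractions. Whether these cells held fewer UMIs of these genes per cell was not tested. Csf1r averaged 487 CPM with and 854 CPM without (-0.97 ± 0.10), and Cd74, the invariant chain of MHC class II, 8314 and 16284 CPM (-1.06 ± 0.10). Lyve1 was at 117 and 140 CPM (adjusted p = 0.54). Of 18 chemokine genes 13 were lower and 1 higher (median -0.76), with Ccl3 at 500.3 and 1082 CPM (-1.28 ± 0.13). The lowest named genes were Scimp, an adaptor of antigen-presenting cells (-1.50), Dse (-1.29), Gpr65 (-1.22), Ptger4, a prostaglandin receptor (-1.21), the lectins Clec4a1 (-1.19) and Clec4a2 (-1.16), Cln8 (-1.18), Blnk, an adaptor of B cell receptor signalling (-1.17), and Cyth4 (-1.16), besides Ccl3. Lysosomal and lipid-handling genes gave 3 higher and 13 lower of 22 (median -0.45). Interferon genes, with 6 higher and 2 lower of 14 (median 0.42), and genes of the cell cycle, with 4 higher and none lower of 11 (median 0.48), ran the other way.

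Lists that moved with MI over all C1q cells were read again in the cells without Cdh5 or Kdr, a setting chosen after the data were seen. There 2864 genes were tested and 209 called (7.3%), 104 higher (3.63%) and 105 lower (3.67%). Of the 17 resident genes 16 were tested, 12 fell and 1, Fcrls, rose (median -2.28). Interferon genes gave 4 higher of 11 (Irf7 among them), chemokines and their receptors 4 higher and 4 lower of 18, receptors for the uptake of dead cells 4 lower of 14, the antigen presentation list 2 higher of 9 (Cd72 and Cd83), and the cell cycle list 1 of 6. Of the 217 genes lower over all C1q cells 158 were tested here and 83 called lower, and of the 167 higher genes 95 were tested and 49 called higher; these cells are part of those the genes were called on, so the overlap is no independent support. Gas6 fell (-1.50, adjusted p = 0.0031) and Ms4a4c rose, while Cd86 was near 0 (-0.15, adjusted p = 0.83).

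Within the C1q cells, those with a UMI of Lyve1, Timd4 or Folr2 at 1000 UMIs made up 41.7, 50 and 70.8% in Healthy 227, 239 and 240 and 6.53, 9.71, 10.4 and 11.0% in the MI mice. Every healthy mouse lay above every MI mouse; pooled, the shares were 54.5% and 9.23%. Cells with Ccr2 were 8.33, 6.0 and 0% in Healthy 227, 239 and 240 (1, 3 and 0 cells) and 10.7, 9.71, 10.9 and 12% in the MI mice, which did not overlap. Pooled, they were 5.68% of healthy C1q cells, where 1 of the 5 cells was from Healthy 228, and 10.7% of MI C1q cells, and cells with both a resident gene and Ccr2 were 0 and 0.486%. Cells with an MHC class II gene were 50, 64.0 and 37.5% of C1q cells in the healthy and 59.1, 38.8, 36.6 and 44.0% in the MI mice, which overlap. In healthy mice such cells were 35.4% of those with a resident gene and 80.0% of the others, and in MI mice 30.5% and 45.5%, pooled over mice. By mouse the cells with a resident gene were lower in 6 of 7, and in MI 244 the shares were 63.2% of 19 cells with a resident gene and 58.8% of the others. A share of cells with a UMI at this depth misses cells that hold little of the RNA.

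Markers of other cell types were checked in the C1q cells. Summed fibroblast genes were at 128 to 2401 CPM in healthy and 404 to 1192 CPM in MI mice, pericyte genes at 5.66 to 556 and 44.1 to 168 CPM, cardiomyocyte genes at 151 to 260 and 115 to 218 CPM, and red cell and platelet genes at 151 to 260 and 83.0 to 454 CPM. Neutrophil genes were at 23.2 to 57.2 and 37.6 to 85.2 CPM, dendritic cell genes at 39.6 to 112 and 47.9 to 68.3 CPM, and T and natural killer cell genes at 0 to 5.66 and 9.88 to 15.1 CPM. B cell genes were at 226 to 418 and 287 to 6581 CPM, the highest in MI 250. Of these lists only the pericyte gene Rgs5 (-2.91) and the dendritic cell gene Batf3 (-1.63) were called between MI and healthy C1q cells. Without Healthy 239 neither was called, and Rgs5 was then higher in MI (2.297, adjusted p = 0.28).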

How the data were processed

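Single cells of 8 hearts, 1 library per mouse, had been sequenced with 10X Chromium, and the authors deposited 1 aggregated table of UMI counts of 31028 cells and 16791 genes, whose values are whole and not normalized. The submitters' processing notes name Cell Ranger, R 3.5.2, Seurat 2.3 and mm10, and the study's methods give filters of at least 400 genes and under 20% mitochondrial reads per cell; the lowest cell had 403 genes and the highest 19.963% mitochondrial UMIs. No value column was left unused.

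Cells of Healthy 228 with a barcode of Healthy 239, and of Healthy 227 with one of Healthy 228, were dropped. Endothelial cells and other classes were gated on their own markers among cells that were no C1q cells. The members, the gene lists and the tests were chosen with earlier results of these data known. The lists share genes (Cd163, Timd4, Mrc1 and Gas6, for example).

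UMI counts were summed per mouse (mice with at least 10 C1q cells) and tested with edgeR 4.0.16 in R 4.3.3 (filterByExpr, TMM, quasi-likelihood F test, Benjamini-Hochberg at 0.05). Tests of whether the change with MI differed between C1q and endothelial cells, and tests between cells with and without Cdh5 or Kdr, had the mouse as a block; no replicate number pairs healthy with MI mice. Shares were compared by two-sided exact permutation tests over mice (SciPy 1.17.1), also after thinning each cell to 1000 UMIs. Python 3.11.15, NumPy 2.4.6 and pandas 2.3.3 were used for sums and matplotlib 3.10.9 for plots. Alternatives were DESeq2 1.42.0, limma-voom 3.58.1, RLE factors, no filter on low counts, thinned cells, copies kept, other C1q rules, Xist as a covariate and each mouse left out. The procedure was tested on simulated data.

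Genes are named where they are on a list that a passage rests on, where the rule used them, or where they are among the 10 highest or 10 lowest log2 fold changes of a comparison (counting called genes that averaged 50 CPM or more over the mice and whose sides did not overlap), Xist and Y-linked genes left out. C1q cells were sequenced to 86044 to 3651503 UMIs per mouse, so a gene at 10 CPM in Healthy 227 is less than a single UMI. Promoter sequences are from RefSeq (GRCm38.p6). No doublet caller was run. Some genes of the lists are not reported here.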

Additional observations from a re-analysis of the deposited data

Results flagged for a closer look

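Among 132 values compared over the 4 mice of a group, 6 had 1 mouse far from the others, and chance alone gives about 1 in 20. The values were the levels of 124 genes over the MI mice, and the share, depth, depth ratio and mitochondrial percent of C1q cells in each group. All 6 were levels of genes in MI mice. In MI 244 the C1q cells had the lowest Ctsd (2293 CPM), the highest H2-Aa (4912 CPM) and the highest Gbp4, an interferon-induced GTPase (104 CPM). In MI 256 they had the lowest Fbln2, a matrix protein (61.7 CPM), the lowest Tshz2 (52.9 CPM) and the lowest Tie1, an endothelial receptor kinase (86.0 CPM).

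Of the 543 genes whose change with MI in C1q cells differed from that in endothelial cells of the same mice (edgeR, 12307 genes tested, mouse as a block), the 10 highest and 10 lowest by the rule for named genes are given. The difference was positive for Grrp1 (2.66 on the log2 scale), Gbp4 (2.41), Ccrl2 (2.31), Aplnr (2.26), Ifit1 (2.22), Pim1 (2.02), Upp1 (1.89), Id2 (1.88), Adgrl4 (1.86) and Igfbp3 (1.82). It was negative for Ms4a6d (-6.10), Ccl8 (-4.39), Ptafr (-4.21), Tgfbi (-3.79), Lyve1 (-3.67), Clec4n (-3.34), AF251705 (-3.25), Cbr2 (-3.22), Epsti1 (-3.17) and Lilr4b (-3.12). With 1 mouse left out Upp1 was not called in 6 of 7 fits (without MI 256 it was), and Gbp4, Igfbp3, Ptafr, AF251705 and Epsti1 were not called in 1 or 2. Without Healthy 239 the difference was 4.41 for Grrp1, 1.57 for Aplnr, 3.44 for Ifit1, 2.89 for Igfbp3, -4.56 for Tgfbi, -4.17 for AF251705, -4.02 for Cbr2 and -3.90 for Lilr4b, and that of Cbr2 was -2.51 without Healthy 240. Of the negative ones Lyve1 and Cbr2 were called in C1q cells themselves.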

How the results depend on the processing

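The share of C1q cells stayed higher in MI in every setting run. With 1 mouse left out the difference was 3.72 (without MI 255) to 6.17 percentage points, and the exact permutation p of 0.0571 is then the smallest possible. The difference in the share with Cdh5 or Kdr was 8.77 points with copied cells kept (exact permutation p = 0.0286), a setting that counts cells of Healthy 239 again as a 4th healthy mouse, Healthy 228, so this p is no gain in replicates. Of the 384 genes called between MI and healthy C1q cells, the count was 104 with cells thinned to 1000 UMIs (1572 tested), 680 with copied cells kept, 209 in cells without Cdh5 or Kdr, 686 with no filter on low counts (419 higher and 267 lower) and 176 (without Healthy 239) to 504 with 1 mouse left out (205 without Healthy 240, 248 without MI 244 and 211 without MI 255). DESeq2 gave 228 higher and 293 lower, and limma-voom 167 and 277. The 543 differences from endothelial cells, with the mouse as a replicate block, became 279 (without Healthy 240) to 642 with 1 mouse left out. The 1790 genes called with against without Cdh5 or Kdr, also with the replicate block, became 270 of 1186 tested with thinned cells, which were divided again at that depth (10 with and 40 without in Healthy 239, from 33 and 17), and 1090 (without MI 255) to 2042 with 1 mouse left out. Lgals3 (log2 fold change -0.05, not called) was called higher with all 3 C1q genes required (2.02), with thinned cells (1.18), without Cdh5 or Kdr cells (2.40) and without the deepest 20% of cells (2.33), and lay between -0.53 and 1.85 with 1 mouse left out, the highest without Healthy 240. Rgs5 (-2.91) was at 1.10 without the deepest 20% of cells, and between -3.37 and 2.297 with 1 mouse left out, the highest without Healthy 239. Over all genes named between MI and healthy, Lgals3 and Rgs5 included, 73 calls were lost, 33 gained, 5 reversed and 845 unchanged in side and direction over the settings that keep all mice. With 1 mouse left out 117 were lost, 6 gained, 2 reversed and 511 unchanged. The setting of cells without Cdh5 or Kdr in mice with 10 or more such cells could not be fitted, since only 1 healthy mouse has them; mice with 5 or more were used, a choice made after seeing the data. No paired analysis was possible because the healthy and MI mice share no replicate numbers. The 88 healthy C1q cells limit every comparison between the groups, and the fold of a gene with 1 to 3 healthy UMIs is known only within a wide counting interval.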

Other observations

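Some levels in C1q cells rested on single cells. In MI 250 1 cell held 98.9% of the UMIs of Igkc and 91.5% of those of Ighm, antibody chains of B cells. In Healthy 239 1 cell held 91.0% of the UMIs of Dcn, a fibroblast proteoglycan, and in MI 250 1 cell held 63.6%. All 356 UMIs of Ccl21a, a chemokine of lymphatic endothelium, in Healthy 227 came from 1 cell.

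H2-Eb1, an MHC class II beta chain, was at 2603, 1871 and 306 CPM in Healthy 227, 239 and 240 and at 61.8, 903, 30.4 and 986 CPM in MI 244, 250, 255 and 256 (edgeR log2 fold change -1.63 ± 0.96, adjusted p = 0.39). MI 244 and MI 255 were lowest for H2-Eb1 although their H2-Aa, at 4912 and 2777 CPM, was the highest of the MI mice. Cd74 did not show this split, at 12823 CPM in MI 244 and 7296, 7042 and 7943 CPM in the other MI mice.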
